A study of Mus musculus with 2688 samples.

Results

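Microglia of the corpus callosum, a white matter tract, were compared with microglia of the hippocampus, a grey matter region, in mice 16 weeks old. The comparison was chosen by the labels alone: the 4 corpus callosum and 4 hippocampus samples of that age, which are 8 of the 51 region samples of the series. All 8 came from CD1 mice labelled wild type, with no transgene, treatment or deletion named, and, by the series' design, each replicate stands for the single cells of one mouse and region. The series took single microglia by fluorescence-activated sorting of cells stained for CD11b, CD45, Ly6C, Ly6G and CD206, and read their full-length cDNA with SmartSeq2, which uses no molecular identifiers. Several regions came from the same mice, but the labels do not say which hippocampus sample shares a mouse with which corpus callosum sample.

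Microglia are the resident macrophages of the brain and spinal cord. They survey the tissue through purinergic and chemokine receptors, clear debris and dying cells, and depend on TGF-beta signalling to keep their homeostatic gene programme. In white matter they live among myelinated axons, and a set of genes that includes Spp1, Clec7a, Itgax and Apoe is known from microglia that respond to myelin debris, ageing or amyloid.

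The 8 samples filled 380 wells of one 384-well plate, and 316 wells were kept as cells with at least 500 detected genes and at most 20% mitochondrial counts. The corpus callosum kept 148 of 190 wells (36 to 38 per sample) and the hippocampus 168 of 190 (41 to 44 per sample). Summed gene counts ran from 5509588 to 8088859 per corpus callosum sample and from 9913953 to 12292736 per hippocampus sample, with no overlap. Hippocampus cells filled plate columns 1 to 12 and corpus callosum cells columns 13 to 24, so region and side of the plate cannot be told apart. Microglial markers were found in nearly all cells of both groups: reads of P2ry12 and Tmem119, microglial surface proteins, were found in 97.3% of corpus callosum cells and 100% of hippocampus cells. Csf1r, the receptor for the growth factor that keeps microglia alive, was found in 100% of both. Sall1, a microglial transcription factor, was found in 83.1% and 92.9%.

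No gene separated microglia of the 2 regions at 16 weeks by the main test. Among the genes of smallest unadjusted p were Il1rl2, higher in the corpus callosum, and Pon3 and Nrros, lower there, beside 5 near-identical predicted genes. edgeR's quasi-likelihood test with Benjamini-Hochberg adjustment called 0 of 11145 genes (0%), the smallest adjusted p being 0.957. At an unadjusted p under 0.05 it held 382 genes (3.43% of those tested), 191 higher and 191 lower in the corpus callosum (1.71% each way). DESeq2 on the same sums called 23 genes (0.206%), 13 higher and 10 lower. An edgeR fit that shared its spread over all 51 region samples called 8 of 22550 genes (0.0355%), 2 higher and 6 lower, whereas the same fit over the 20 samples of 16 weeks called 0 of 14196 (1002 at an unadjusted p under 0.05, smallest adjusted p 0.662). The median log2 fold change of all genes tested was 0.005 (corpus callosum over hippocampus, as everywhere below).

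Samples of one region differed from each other about as much as samples of different regions did. Over the 1789 genes with a mean of at least 100 CPM (counts relative to library size, scaled by TMM), the median absolute log2 difference between a corpus callosum and a hippocampus sample was 0.41 to 0.50 over the 16 pairs. Between 2 corpus callosum samples it was 0.44 to 0.50 over 6 pairs, and between 2 hippocampus samples 0.41 to 0.48 over 6 pairs. What the comparison could bound depended on the level of the gene. The 95% interval of the fold change lay within 2-fold for 91 of 96 genes with a mean of at least 1000 CPM (94.8%), for 885 of 1789 at 100 CPM (49.5%) and for 987 of 8581 at 10 CPM (11.5%). The biological coefficient of variation was 0.952. Values at low CPM therefore carry wide intervals, and a gene short of the threshold was not shown to be equal.

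The genes named next are the 10 in each direction with the smallest unadjusted p among those of at least 10 CPM whose groups did not overlap. Groups failed to overlap for 322 genes (2.89%), 174 higher (1.56%) and 148 lower (1.33%) in the corpus callosum. Of the 70 splits of 8 samples into 4 and 4, a share of 0.0286 separates the groups fully. Genes with no region difference would on average do so about that often, and 2.89% is near that share. Lack of overlap alone therefore does not mark a gene as different between the regions, here or below. None of the 20 passed edgeR's adjusted threshold, their adjusted p being 0.957 or 1.00. DESeq2 called 14 of the 20, 8 higher and 6 lower, beside 23 of all 11145 genes (0.206%). It tested the same sums from which the 20 were chosen, so these calls are not a separate check.

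Il1rl2, the receptor of the IL-36 cytokines, had the smallest unadjusted p of the genes higher in the corpus callosum. Il1rl2 (chr1:40324610-40367562 of GRCm38, the build of all positions given) had 315, 226, 116 and 174 CPM in corpus callosum replicates 1 to 4 and 53.9, 35.1, 49.7 and 60.6 CPM in hippocampus replicates 1 to 4. The lowest corpus callosum sample was above the highest hippocampus sample, as the rule for naming genes required. On the log2 scale the difference was 2.06 ± 0.37 (SE; unadjusted p 0.000201 from edgeR), and DESeq2 gave an adjusted p of 0.000196. Reads of Il1rl2 came from 35 of 148 corpus callosum cells and 33 of 168 hippocampus cells. The share of cells with reads separated the regions less clearly: after each cell was thinned to 64690 reads, Il1rl2 was found in 24.2% ± 8.83 and 19.3% ± 7.67 of cells (SD, n = 4). Cells with fewer reads than 64690 were left out, so thinned shares rest on 117 of 148 corpus callosum and 167 of 168 hippocampus cells. Shares of cells for the named genes come from the samples that chose those genes and are given as a description.

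Trpc4ap, an adaptor protein of a ubiquitin ligase complex, and Slc34a2, a sodium-dependent phosphate transporter, were both among the genes higher in the corpus callosum. Trpc4ap (chr2:155634271-155692384) had 339, 352, 286 and 351 CPM in the corpus callosum and 124, 211, 172 and 199 CPM in the hippocampus, a log2 fold change of 0.91 ± 0.23 (SE). Slc34a2 (chr5:53038081-53071664) had 3079 ± 249.6 CPM in the corpus callosum and 2042 ± 439 in the hippocampus (SD, n = 4), a log2 fold change of 0.59 ± 0.16 (SE). The highest hippocampus sample for Slc34a2 had 2613 CPM and the lowest corpus callosum sample 2719. Pxk, a protein with phox and kinase-like domains that acts in endosomal traffic (chr14:8098213-8165111), had 34.4, 119, 111 and 94.6 CPM against 7.28, 11.1, 33.8 and 12.7. The log2 fold change of Pxk was 2.47 ± 0.63 (SE), and corpus callosum replicate 1 lay just above hippocampus replicate 3. Pxk was found in 26.4% ± 9.17 of corpus callosum cells and 12.6% ± 1.23 of hippocampus cells at matched depth. The level of Fgf11, an intracellular fibroblast growth factor homologue, rested on 620 reads in 4 corpus callosum cells, 60.3% of them in 1 cell, against 3 reads in 1 hippocampus cell.

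The other 5 named genes of the higher group were Gm10800, Gm10717, Gm10801, Gm21738 and Gm10722, predicted genes with near-identical copies among which reads can be split. Gm10800 had 2126, 5547, 2227 and 6325 CPM in the corpus callosum and 1351, 852, 403 and 280.4 CPM in the hippocampus, a log2 fold change of 2.49 ± 0.53 (SE). A list of 13 such rows, chosen after their values were seen, had 10 tested, and each of the 10 was higher in the corpus callosum with no overlap, at log2 fold changes of 1.97 to 2.84. The rows took 0.329%, 0.767%, 0.341% and 0.980% of counts in the corpus callosum samples and 0.220%, 0.130%, 0.0661% and 0.0479% in the hippocampus samples. In the median cell the shares were 0.0580%, 0.0554%, 0.0796% and 0.216% against 0.111%, 0.0532%, 0.0422% and 0.0458%, which overlapped. Within the corpus callosum they took 2.12% of counts in the 74 shallowest cells and 0.134% in the 74 deepest, while the median cell of the 2 sets had 0.105% and 0.054%. In the hippocampus the shares were 0.15% in the 84 shallowest cells and 0.103% in the 84 deepest, and the 4 blank wells of the plate held no read of them. Median counts per cell were 169737 ± 42425 in the corpus callosum and 225684 ± 25904 in the hippocampus (SD, n = 4), and mean counts per cell 144989 to 218618 and 236046 to 279380, without overlap. The part of depth in this difference was not tested.

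**Figure D1:**
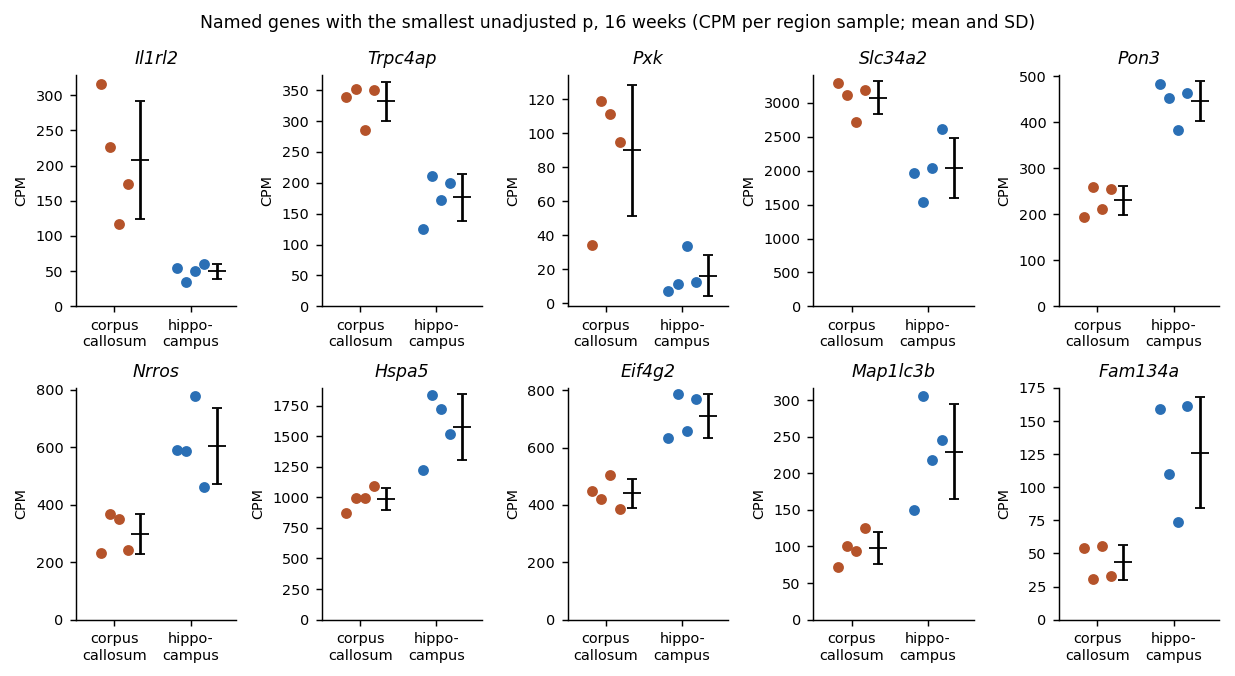
CPM (linear axes from 0) of 10 named genes in each region sample at 16 weeks; each point is 1 sample, orange for corpus callosum and blue for hippocampus, and bars give the mean and SD (n = 4). For each gene shown the 4 samples of one region lie above the 4 of the other, which the rule for naming genes required. The margin is wide for Pon3 (195 to 261 against 383 to 483) and narrow for Slc34a2 (2719 against 2613).

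Pon3 had the smallest unadjusted p of the genes lower in the corpus callosum. Pon3, a lactonase of the paraoxonase family (chr6:5220852-5256286), had 195, 261, 211.9 and 254 CPM in the corpus callosum and 483, 453, 383 and 465 CPM in the hippocampus. For Pon3 the log2 fold change was -0.95 ± 0.19 (SE; unadjusted p 0.000436 from edgeR), and the gap between the groups exceeded the range within each. The share of cells with reads of Pon3 was nearly alike, 55.1% ± 8.31 against 56.3% ± 6.72 at matched depth.

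Nrros presents latent TGF-beta1 on the surface of microglia and is needed for their mature state. Nrros (chr16:32142785-32165594) had 233, 368, 349 and 241 CPM in the corpus callosum and 590.4, 588, 779 and 460.1 CPM in the hippocampus. The log2 fold change of Nrros was -1.02 ± 0.23 (SE), DESeq2 gave an adjusted p of 0.0364, and the edgeR fit over all 51 samples gave an adjusted p of 0.0290. Nrros was also found in fewer cells at matched depth: 43.8%, 57.7%, 59.4% and 48.1% of corpus callosum cells against 82.5%, 70.5%, 64.3% and 68.3% of hippocampus cells. That difference, 52.2% ± 7.52 against 71.4% ± 7.84 (SD, n = 4), was 53.3% against 76.3% without thinning.

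Hspa5, Eif4g2, Map1lc3b and Fam134a were further named genes with lower levels in the corpus callosum. Hspa5, the chaperone BiP of the endoplasmic reticulum (chr2:34771970-34777547), had 987 ± 88.8 CPM in the corpus callosum and 1577 ± 269 in the hippocampus (SD, n = 4), a log2 fold change of -0.68 ± 0.15 (SE). Eif4g2, a translation initiation factor (chr7:111067750-111083030), had 448, 420.2, 506 and 386 CPM against 632, 786, 657 and 768, a log2 fold change of -0.69 ± 0.16 (SE). Both were also found in fewer corpus callosum cells at matched depth, Hspa5 in 81.2% against 92.1% and Eif4g2 in 71.9% against 77.8%. Map1lc3b, the LC3B protein of autophagosome membranes (chr8:121590361-121598760), had 97.8 ± 22.1 CPM against 229.6 ± 64.4 (SD, n = 4), a log2 fold change of -1.23 ± 0.30 (SE). Its share of cells at matched depth overlapped between the regions, at 42.2% ± 5.40 against 46.2% ± 7.97. In the hippocampus 1 cell held 25.7% of the Map1lc3b reads. Fam134a, a relative of the receptors for autophagy of the endoplasmic reticulum (chr1:75142778-75147913), had 54.0, 30.9, 55.5 and 32.7 CPM against 159, 109.7, 74.1 and 161, a log2 fold change of -1.54 ± 0.40 (SE). Its reads were found in 13.6% ± 1.92 of corpus callosum cells and 27% ± 5.61 of hippocampus cells. In the fit over all 51 samples Eif4g2 and Map1lc3b passed the edgeR threshold, with adjusted p of 0.0188 and 0.0372; in that over the 20 samples of 16 weeks neither they nor Nrros did.

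Zfp839, a zinc finger gene, had 25.9 ± 6.80 CPM against 158 ± 123 (SD, n = 4). Its reads came from 22 corpus callosum and 35 hippocampus cells, and 1 cell held 42.4% of the hippocampus reads. Zfp3, Gab3 and Top2a rested on fewer cells. Zfp3, another zinc finger gene, had 5 reads in 3 corpus callosum cells and 1032 reads in 17 hippocampus cells. Gab3, an adaptor of receptor signalling, had 45 reads in 11 corpus callosum cells and 1606 in 16 hippocampus cells. Top2a, the topoisomerase of dividing cells, had 6 reads in 3 corpus callosum cells and 801 in 6 hippocampus cells, 44.4% of them in 1 cell. Within hippocampus replicates 1 to 4 the top cell held 100%, 98.7%, 100% and 100% of the Top2a reads. Top2a was called by DESeq2 (adjusted p 0.000928) and by the edgeR fit over all 51 samples (adjusted p 0.0344). The fit over the 20 samples of 16 weeks did not call it.

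Homeostatic microglial genes leaned lower in the corpus callosum by a small margin, with no gene past the threshold. All 22 listed genes were tested, 18 had a log2 fold change below 0 and the list's median was -0.15, beside 0.005 for all genes. The edgeR unadjusted p was under 0.05 for 5 of the 22, each lower, beside 1.71% of all genes lower at that level, and DESeq2 called none. The intervals bounded the differences for this list: 19 of the 22 lay within 2-fold. Summed over the list the level was 117665 to 129169 CPM in the corpus callosum and 133255 to 153959 CPM in the hippocampus, with no overlap. Mean counts per cell were also lower in the corpus callosum, and the part of depth in this shift was not tested.

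P2ry12, the ADP receptor that steers microglial processes, had 9561, 11318, 10819 and 9957 CPM in the corpus callosum and 10855, 12898, 13579.7 and 12552 CPM in the hippocampus. Its log2 fold change was -0.26 ± 0.09 (SE; unadjusted p 0.0174 from edgeR), and the groups overlapped. Tmem119 had 6163 ± 882 CPM against 6852 ± 1169.7 (SD, n = 4), a log2 fold change of -0.15 ± 0.14 (SE). Cx3cr1, the receptor for the neuronal chemokine fractalkine, had 8059 ± 1077 CPM against 9275 ± 784, a log2 fold change of -0.20 ± 0.11 (SE). The other 4 genes at an unadjusted p under 0.05 are named here because of their values. Mertk, a receptor for engulfing dying cells, had 823, 687, 677 and 895 CPM against 1162, 1018, 1259.5 and 1004, and was the only listed gene without overlap. Its log2 fold change was -0.53 ± 0.15 (SE). Fcrls, an Fc receptor-like protein, had a log2 fold change of -0.75 ± 0.32, Olfml3, a secreted glycoprotein, -0.46 ± 0.20, and Cst3, the protease inhibitor cystatin C, -0.24 ± 0.08 (SE).

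**Figure D2:**
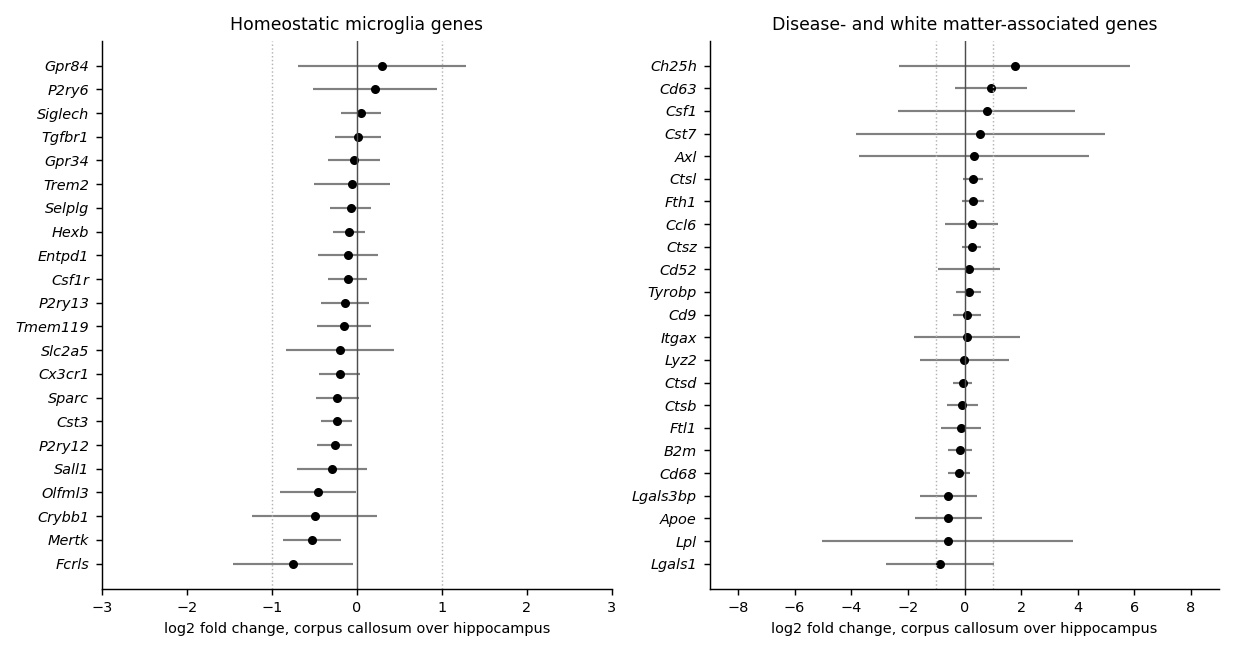
Log2 fold change (corpus callosum over hippocampus, 16 weeks) with its 95% interval for the 22 homeostatic genes tested (left) and the 23 genes tested from the disease-associated and white matter-associated list (right); dotted lines mark a 2-fold change and the horizontal axes differ. Homeostatic genes cluster just below 0 with short intervals, while most intervals on the right span 2-fold.

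Genes of the disease-associated and white matter-associated list showed no common direction. Of 30 listed genes 23 were tested; 13 had a log2 fold change above 0 and 10 below, with a median of 0.08, and none had an edgeR unadjusted p under 0.05. The summed level of all 30 was 18703 to 25100.5 CPM in the corpus callosum and 18141 to 25667 CPM in the hippocampus, which overlapped widely. Only 10 of the 23 intervals lay within 2-fold. Apoe, the lipid carrier, had 108, 777, 945 and 868 CPM in the corpus callosum and 1562, 1026, 623 and 795 CPM in the hippocampus. Corpus callosum replicate 1 stood far below the other 3 of its group, and the log2 fold change was -0.57 ± 0.53 (SE). Ctsl, a lysosomal protease, had 1049.8 ± 118 CPM against 847 ± 129.9 (SD, n = 4) at a log2 fold change of 0.31 ± 0.16 (SE).

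Reads of Spp1 and Clec7a were seen in corpus callosum cells only, in few of them. Spp1, the secreted protein osteopontin, had 675 reads in 7 of 148 corpus callosum cells, in 3 of the 4 samples (a single read in replicate 1), and none in 168 hippocampus cells. For counting error alone, 0 of 168 allows up to 1.79% of cells with reads, and the 41 to 44 cells of a sample allow up to 6.82% to 7.32%. Clec7a, the receptor dectin-1, had 713 reads in 5 corpus callosum cells, in all 4 samples (a single read in replicate 4), and none in the hippocampus. At matched depth Spp1 was found in 0%, 3.85%, 9.38% and 0% of corpus callosum cells and Clec7a in 3.12%, 0%, 3.12% and 0%. Neither share differed beyond the spread of the samples (exact permutation p 0.429 for each, n = 4 per group, and 0.75 adjusted over the 42 genes whose shares were compared). Itgax, an integrin chain, was found in 12 corpus callosum and 7 hippocampus cells, Lpl, a lipoprotein lipase, in 8 and 3, and Cst7, a protease inhibitor, in 4 and 3. The 4 blank wells held no reads of these genes.

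Complement and lysosome genes, both abundant in microglia, differed little. Of the C1q chains, which form the recognition unit of the classical pathway, C1qa had a log2 fold change of -0.17 ± 0.10, C1qb -0.06 ± 0.10 and C1qc -0.28 ± 0.10 (SE). C1qc had 2088, 2003, 1934 and 1919 CPM in the corpus callosum and 2435, 2512, 2415 and 2289 CPM in the hippocampus. Each C1qc value in the hippocampus was above each in the corpus callosum, at an unadjusted p of 0.0170 from edgeR. It was the only complement gene of the 9 tested under 0.05. Of all genes, 1.71% were lower at that level and 1.33% were lower without overlap. All 30 lysosome genes were tested, 13 above and 17 below 0, with a median of -0.02, and 25 intervals lay within 2-fold. Ctsd, the main aspartic protease of lysosomes, had 9096 ± 1688 CPM against 9484 ± 1529 (SD, n = 4).

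MHC class II genes, which present peptides to CD4+ T cells, were set apart by replicate and not by region. All 9 genes tested had a log2 fold change below 0, with a median of -0.26, but none of the intervals lay within 2-fold. Cd74, the invariant chain, had 11.5, 56.1, 22.7 and 786 CPM in the corpus callosum and 69.0, 99.5, 3.26 and 967 CPM in the hippocampus. H2-Ab1 had 0, 28.6, 73.9 and 422 CPM against 19.8, 7.60, 84.4 and 421, and H2-Aa 0, 7.20, 0 and 314 CPM against 10.6, 4.05, 0 and 380.4. For these 3 genes replicate 4 was the highest sample in both regions. Whether the samples numbered 4 share a mouse is not given in the labels.

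Cells with reads of all 3 of these genes numbered 12 of 41 in hippocampus replicate 4 and 2 of 36 in corpus callosum replicate 4. Elsewhere there was 1 such cell in corpus callosum replicate 2 and 1 in hippocampus replicate 1. All 16 also had reads of P2ry12 and Tmem119, and 15 had reads of Sall1. One cell held 59.2% of the class II reads of corpus callosum replicate 4, and 1 cell held 27.8% of those of hippocampus replicate 4. Thus many cells carried the signal in the hippocampus sample and few in the corpus callosum sample.

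**Figure D3:**
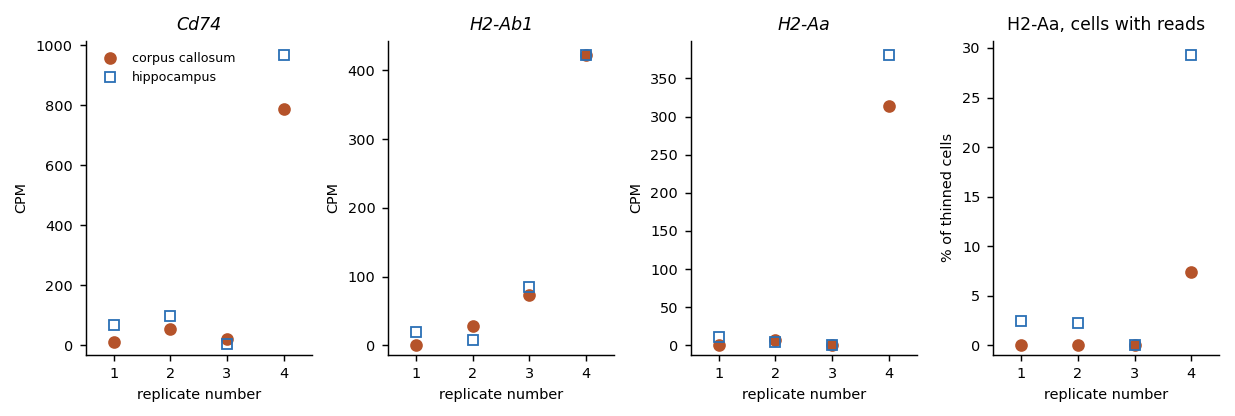
CPM of Cd74, H2-Ab1 and H2-Aa, and the percent of depth-matched cells with reads of H2-Aa, by replicate number; filled circles are corpus callosum and open squares hippocampus samples at 16 weeks. Replicate 4 is highest in both regions for each gene (Cd74 786 and 967 CPM), and 29.3% of hippocampus cells and 7.41% of corpus callosum cells of replicate 4 had H2-Aa reads.

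Interferon response genes were high in 1 corpus callosum sample, through a single cell. Of 16 genes tested 9 were above and 7 below 0, with a median of 0.19, and Usp18, a negative regulator of interferon signalling, had an edgeR unadjusted p of 0.0223, with 77.1% of its corpus callosum reads in 1 cell. Summed over the list, corpus callosum replicate 3 had 1680.2 CPM and the other 3 corpus callosum samples 273 to 325 CPM, while hippocampus samples had 189.5 to 552 CPM. One cell held 86.4% of the interferon reads of corpus callosum replicate 3. In the hippocampus samples the top cell held 13.1% to 36.1%. Cxcl10, an interferon-induced chemokine, had 2139 reads in 2 corpus callosum cells, 99.95% in 1 of them, and none in the hippocampus.

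Chemokine and NF-kappa B genes had medians near 0 (0.12 and -0.03), as did stress response genes, and few had an unadjusted p under 0.05. Cxcl16, a membrane-bound chemokine, had 94.3, 64.8, 94.9 and 163 CPM in the corpus callosum and 37.3, 69.9, 22 and 41.2 CPM in the hippocampus, and corpus callosum replicate 2 lay within the hippocampus range. That is a log2 fold change of 1.29 ± 0.47 (SE; unadjusted p 0.0189 from edgeR). Nfkbia, the inhibitor that holds NF-kappa B in the cytoplasm, had 96.4 ± 24.9 CPM against 189.9 ± 87.2 (SD, n = 4), a log2 fold change of -0.98 ± 0.37 (SE). Egr1, an immediate early gene that dissociation can induce, had 0.508, 2.27, 3.80 and 0 CPM against 64.0, 0.675, 42.1 and 2.42, so hippocampus replicates 1 and 3 carried it. Cxcl16, Nfkbia and Egr1 are given because of their values.

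Of 15 genes of TGF-beta signalling tested, Nrros included, 7 were above and 8 below 0, and the median was -0.02. The receptor genes Tgfbr1 and Tgfbr2 had log2 fold changes of 0.02 ± 0.12 and 0.08 ± 0.19 (SE). Nrros was the 1 gene of the list that DESeq2 called. Of 20 microglia and macrophage transcription factor genes, Mef2a, a MEF2 family factor, had 885 ± 114 CPM against 634 ± 100.1 (SD, n = 4). Its log2 fold change was 0.48 ± 0.17 (SE), and it was picked for its value. The list held 1 gene higher and 1 lower at an edgeR unadjusted p under 0.05, beside 1.71% of all genes each way. Sall1 had a log2 fold change of -0.29 ± 0.18, Spi1, the master factor PU.1, -0.45 ± 0.23, and Irf8 0.19 ± 0.19 (SE).

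Metabolic and structural groups sat near 0. Lipid handling genes had a median of -0.10 over 12 genes, cholesterol synthesis genes 0.19 over 18, iron handling genes 0.05 over 11 and glycolysis genes 0.19 over 15. Of these, Mylip, which degrades the LDL receptor, at 0.73 ± 0.28 (SE), and Dhcr7, a late enzyme of cholesterol synthesis, at 1.27 ± 0.52, had an edgeR unadjusted p under 0.05 and are named for it. Cytosolic ribosomal protein genes had a median of 0.05 over 72 genes and nuclear oxidative phosphorylation genes -0.06 over 77. Of 21 actin cytoskeleton genes, with a median of 0.03, Cfl1, Pfn1 and Tmsb4x, which regulate actin turnover, were lower in the corpus callosum without overlap, as were 1.33% of all genes. Their log2 fold changes were -0.47 ± 0.22, -0.36 ± 0.19 and -0.25 ± 0.12 (SE), each at an edgeR unadjusted p above 0.05. Wdr1, which helps take actin filaments apart, lay the other way at 0.53 ± 0.21 (SE) and was the 1 actin gene with an unadjusted p under 0.05 (0.0280 from edgeR).

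**Figure D4:**
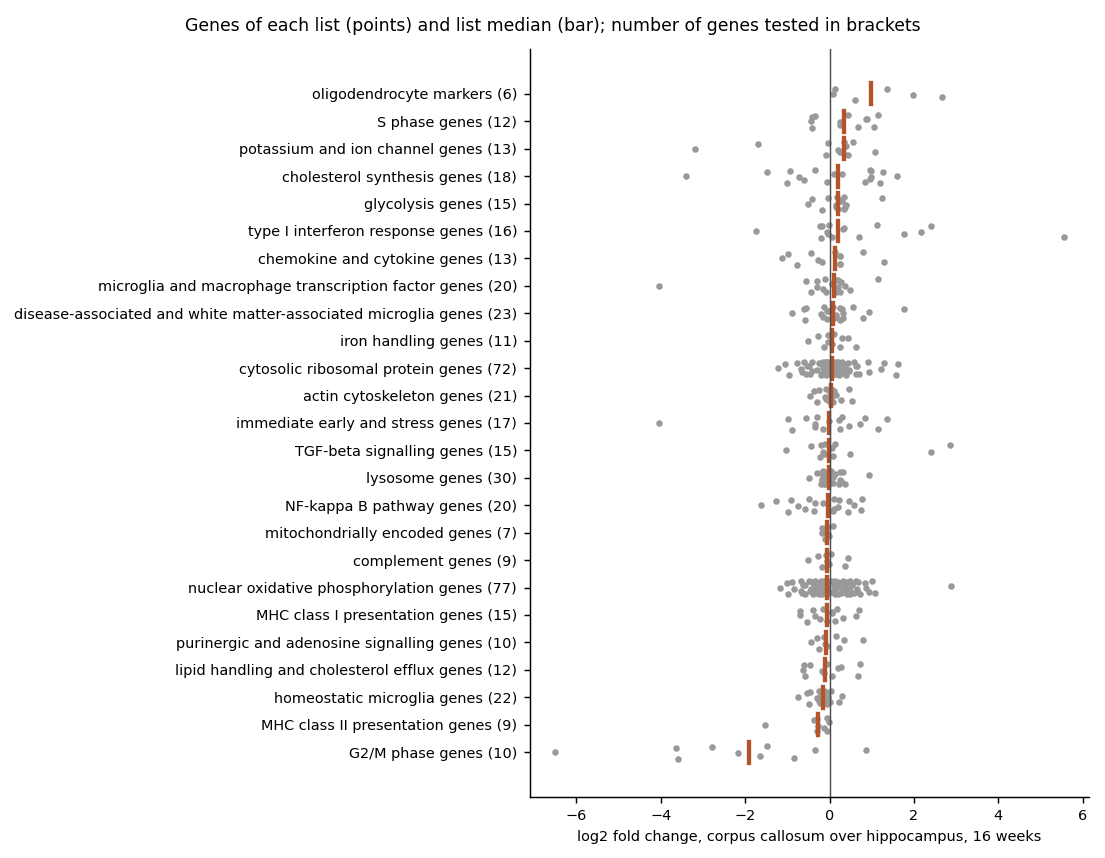
Log2 fold change (corpus callosum over hippocampus, 16 weeks) of the genes tested in 25 gene lists; each grey point is a gene, each orange bar a list's median, and the number of genes tested stands in brackets. Medians lie near 0 except for G2/M phase genes (-1.91 over 10 genes) and oligodendrocyte markers (0.98 over 6 genes), both lists of low counts with widely scattered points.

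Dividing cells were rare in both regions. Of 10 G2/M phase genes tested 9 had a log2 fold change below 0 and the median was -1.91. The summed level of the list was 33.0, 87.1, 7.98 and 67.8 CPM in the corpus callosum and 46.4, 20.2, 342 and 517 CPM in the hippocampus. Hippocampus replicates 3 and 4 were high, and in each of them 1 cell held most of the reads, 96.0% in replicate 3 and 76.1% in replicate 4. S phase genes, with a median of 0.35 over 12 tested, were not lower.

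Markers of other brain cells were found in both groups. Of 16 oligodendrocyte markers 6 were tested, all with a log2 fold change above 0 and a median of 0.98. The summed level of all 16 was 332 to 746 CPM in the corpus callosum and 366 to 420.3 CPM in the hippocampus, and 1 marker, Olig2, had no reads in either. Mbp, a myelin protein, had 30.0 ± 9.42 CPM against 19.7 ± 11.5 (SD, n = 4). The 4 neuron markers tested were above 0 as well, at a median of 1.22. Sums over all 12 listed neuron markers were 10.9 to 31.6 CPM against 1.15 to 21.3 CPM. Of 15 markers of border-associated macrophages 3 were tested, and sums over all 15 were 87.0 to 243 CPM against 129 to 245 CPM. The defining gene Pf4 had 0 reads in the corpus callosum and 4 in the hippocampus. Mrc1, another marker of that list, had 14 reads in 4 corpus callosum cells and 196 in 2 hippocampus cells, 95.4% of them in 1 cell. Of 12 astrocyte markers 2 were tested, and the summed level of the 12 was 205 to 351 CPM in the corpus callosum and 139.7 to 314 CPM in the hippocampus, most of it Slc1a3. Several defining astrocyte genes had reads almost only in the corpus callosum, in few cells: Gfap 96 reads in 2 cells against 1 read, Aqp4 90 in 4 against 0, Slc1a2 58 in 6 against 0 and Gja1 56 in 5 against 0. These 4 genes were picked for their values. No T and NK cell marker and no erythroid marker passed the filter on low counts. The part of RNA from other cells in the differences above was not tested.

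The same contrast was available at 3 weeks, with 3 samples of each region, but there the regions lay on different plates, so region and plate cannot be told apart. edgeR called 0 of 12109 genes (0%), with 793 at an unadjusted p under 0.05 (6.55%), and DESeq2 called 122 (1.01%). Tested as an interaction, the difference between the ages in the region contrast gave 0 of 14973 genes (0%) in edgeR, 1045 at an unadjusted p under 0.05 (6.98%) and 149 in DESeq2 (0.995%). Of the 20 genes named at 16 weeks, 5 had the same sign at 3 weeks and 15 the opposite one. The near-identical Gm10800, Gm10717, Gm10801, Gm21738 and Gm10722 were all among the latter and are not separate cases. The 20 were chosen by their 16-week values, and the same split over all genes was not counted. Interaction adjusted p values from edgeR ran from 0.284 to 0.956 over the 20.

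The higher level of Il1rl2 in the corpus callosum was not seen at 3 weeks, where it had 23.1, 57.3 and 61.2 CPM in the corpus callosum and 52.3, 23.5 and 50.5 CPM in the hippocampus. Its interaction term was 1.89 ± 0.61 (log2, SE; edgeR adjusted p 0.532). Pon3 had 241, 208 and 238 CPM in the corpus callosum and 161, 149 and 187 CPM in the hippocampus at 3 weeks, higher in the corpus callosum. Its interaction term was -1.42 ± 0.26 (log2, SE; edgeR adjusted p 0.284). Nrros had 493 ± 67.8 CPM against 519 ± 86.0 at 3 weeks (SD, n = 3), in the same order as at 16 weeks but with overlap. Slc34a2 had 1369 ± 402 CPM against 1853 ± 201 at 3 weeks (SD, n = 3), with the order of the regions opposite to that at 16 weeks. Fam134a kept its direction, with 60.5 ± 12.8 CPM in the corpus callosum and 122 ± 33.0 in the hippocampus (SD, n = 3). Gm10800, the near-identical predicted gene, had 681 ± 301 CPM against 1682 ± 638 at 3 weeks, the reverse of its order at 16 weeks.

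**Figure D5:**
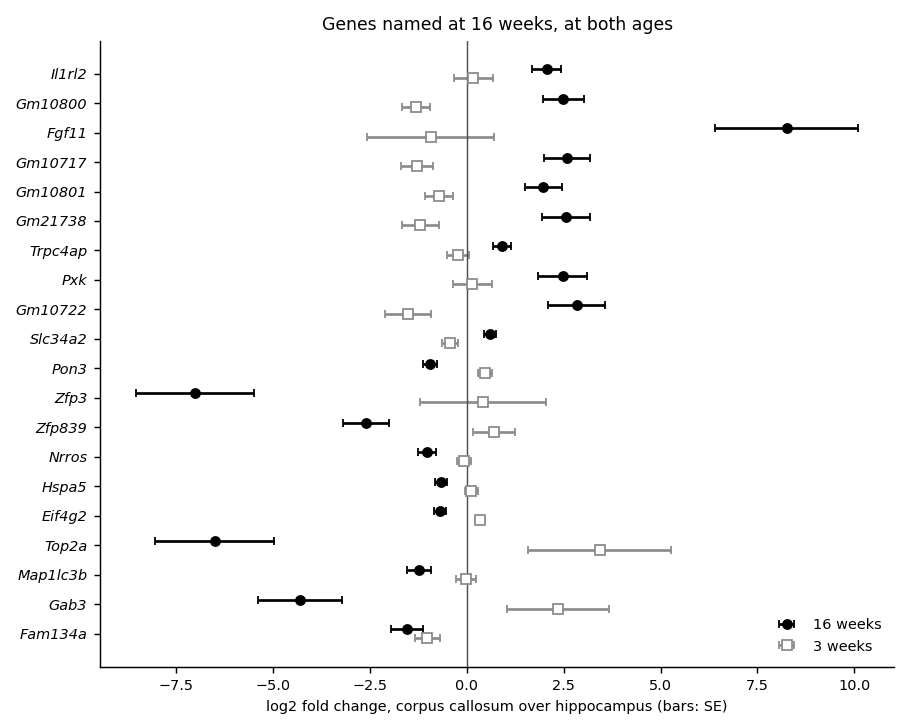
Log2 fold change (corpus callosum over hippocampus) with its SE for the 20 genes named at 16 weeks, at 16 weeks (filled circles) and 3 weeks (open squares). Of the 20, 5 lie on the same side of 0 at both ages, Fam134a among them, and 15 on opposite sides, including the near-identical predicted genes. At 3 weeks each region lay on its own plate.

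Cortex, cerebellum and spinal cord samples of 16 weeks, on other plates, set the levels of the named genes in context, as a description only. On a common scaling over the 20 samples of that age (SD, n = 4), Il1rl2 was highest in the corpus callosum, at 209.9 ± 84.9 CPM. It had 103 ± 29.7 in the cerebellum, 81.6 ± 62.4 in the spinal cord, 51.1 ± 10.9 in the hippocampus and 50.3 ± 23.5 in the cortex. The range of each region overlapped that of its neighbour in this order; the lowest corpus callosum sample had 119 CPM and the highest cerebellum sample 140.2. Pon3 was highest in the hippocampus, at 457 ± 41.9 CPM beside means of 226 to 251 CPM in the other 4 regions, though the highest spinal cord sample (402 CPM) passed the lowest hippocampus sample (397 CPM). Hspa5 and Map1lc3b were highest in the hippocampus too, with 1620.4 ± 282 CPM of Hspa5 in the hippocampus beside means of 867 to 1007 elsewhere, and 236 ± 66.2 CPM of Map1lc3b beside 97.7 to 118; in both, the highest spinal cord sample lay within the hippocampus range. Nrros was graded instead: 621 ± 139 CPM in the hippocampus, 589 ± 94.3 in the cortex, 425 ± 115 in the cerebellum, 367 ± 110 in the spinal cord and 301 ± 73.2 in the corpus callosum. Neighbours in that order overlapped, except that the lowest cortex sample (501 CPM) was just above the highest cerebellum sample (499 CPM). Slc34a2 was highest in the spinal cord (3333 ± 182 CPM) and next in the corpus callosum (3109 ± 236), with overlapping ranges, and lowest in the cortex (1612 ± 180).

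Genes that the fit over all 51 samples called beyond the 20 named were Ifi30, Rab27a, Cct5 and 9930104L06Rik, given here because of that call, which the fit over the 20 samples of 16 weeks did not make. Ifi30, a lysosomal thiol reductase of antigen processing (chr8:70762774-70766663), had 321, 254, 279 and 293 CPM in the corpus callosum and 131, 104, 98.3 and 213.4 CPM in the hippocampus. That is a log2 fold change of 1.07 ± 0.29 (SE), with no overlap between the groups. Cct5, a subunit of the chaperonin that folds actin and tubulin, had 109 ± 31.4 CPM against 221 ± 60.1 (SD, n = 4), a log2 fold change of -1.03 ± 0.31 (SE). Rab27a, a GTPase of vesicle secretion, was higher in the corpus callosum but overlapped, with 24.2, 138, 65.9 and 1.6 CPM against 3.88, 1.94, 8.83 and 1.71. In the corpus callosum 1 cell held 41.9% of the Rab27a reads. 9930104L06Rik had 7.95, 20.3, 1.72 and 0.58 CPM against 45.4, 73.3, 123 and 102, without overlap. Its log2 fold change was -3.50 ± 0.97 (SE), with reads in 11 corpus callosum and 32 hippocampus cells. DESeq2 called 9930104L06Rik (adjusted p 0.0275) but not Ifi30, Rab27a or Cct5.

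Of the measures of the cells themselves, yield separated the regions most. Wells passed the filters in 77.9% ± 1.01 of the corpus callosum and 88.4% ± 2.64 of the hippocampus wells (SD, n = 4), without overlap, at the smallest p of the exact two-sided permutation test, 0.0286, or 0.143 adjusted over the 5 measures. Median detected genes per cell were 2476 ± 306 and 2521 ± 267 (exact permutation p 0.8), and mitochondrial counts 1.95% ± 0.386 and 1.88% ± 0.348 (exact permutation p 0.8). Spike-in counts were 0.248% ± 0.0165 in the corpus callosum and 0.218% ± 0.0166 in the hippocampus (exact permutation p 0.0857, n = 4 per group). Median counts per cell overlapped between the regions (exact permutation p 0.0857). With means in place of medians over cells, counts per cell, spike-in percent and wells kept did not overlap and passed, each at an exact permutation p of 0.0476 adjusted over the 5; the wells kept are the same values, and their adjusted p moved with the other measures. Mean spike-in counts were then 0.401% ± 0.123 against 0.242% ± 0.0191 (SD, n = 4).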

How the data were processed

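The authors deposited raw gene counts per well, with gene coordinates on GRCm38, and per the submitters' processing notes used STAR 2.5.2b and featureCounts 1.6.2. Whether counting used strand is not given in the sources used here. The counts of wells in plate columns 1 and 2 held those of same-row wells whose names start alike (column 1: columns 10 to 19; column 2: columns 20 to 24); these were subtracted. This touched 32 wells, 26 of them kept, all in hippocampus replicate 1. Kept cells were summed per region sample and tested with edgeR 4.0.16 (R 4.3.3; TMM, filterByExpr by group, robust quasi-likelihood F test, two-sided, threshold 0.05), checked on simulated data. Log2 fold changes are on the edgeR scale with SE from F. DESeq2 1.42.0, other filters, scalings, the deposited counts, thinned cells and left-out samples were alternatives. Shares of cells came from cells thinned to 64690 reads (32 cells left out). The loss fell on the corpus callosum, with 117 of 148 cells remaining there and 167 of 168 in the hippocampus. Exact permutation tests used the 70 splits of 8 samples. Fold change intervals carry the spread between samples; limits for a count of 0 cover counting error only, since reads without molecular identifiers are not independent molecules. Replicates are taken as separate mice from the series' design text. The named-gene rule took 10 genes per direction, by unadjusted p, at 10 CPM or more without overlap, and the first 3 genes of each list; other genes were named after their values were seen. Members and lists were chosen with earlier results of these data known. Of 20 named genes, overlapping exons were at most 1.48% of a gene's exon bases.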

Additional observations from a re-analysis of the deposited data

Results flagged for a closer look

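In groups of 4 samples, a value was picked out when its gap to the nearest other sample took more of the group's range than Dixon's test allows at 95%. Of 108 groups tested 10 were picked out, 9.26%. Chance gives about 1 in 20 only for separate groups of continuous, normally distributed values. Some groups here were shares set by few cells or levels set by few reads, as for Fgf11, Top2a and Gm10800. Others share the same genes and samples. The 9.26% therefore cannot be read as an excess over chance.

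MHC class II genes gave 4 of the 10, all in samples numbered 4. Their summed level was 1865 CPM in corpus callosum replicate 4, against 394 to 430.2 in the other 3, and 2273 CPM in hippocampus replicate 4, against 393 to 609.8. H2-Aa was found in 7.41% of cells of corpus callosum replicate 4 and in none of the other corpus callosum cells at matched depth, and in 29.3% of cells of hippocampus replicate 4 against 0% to 2.5% in the others.

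Interferon response genes summed to 1680.2 CPM in corpus callosum replicate 3 and to 273 to 325 CPM in the others of that region. Apoe was found in 37.5% of cells of corpus callosum replicate 1 and in 61.5% to 65.6% in the other 3. Zfp3 had 61.4 CPM in hippocampus replicate 4 and 11.2 to 16.4 in the others. Top2a was found in 4.55% of cells of hippocampus replicate 2 and in 2.38% to 2.5% in the others. Gm10800 was found in 100% of cells of hippocampus replicate 3 and in 97.5% to 97.7% in the others. Fgf11 had 0.302 CPM in hippocampus replicate 4 and none in the others.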

How the results depend on the processing

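The 16-week count of 0 called genes was also 0 with each sample left out, with the deposited counts, without plate columns 1 and 2, with other scalings and with stricter filters. It was 23 with DESeq2, 38 with no filter on low counts and 8 over all 51 samples, but 0 over the 20 of 16 weeks. The replicate block called 0 at 16 weeks. Correlations of same-numbered samples were 0.019 to 0.057, and each corpus callosum sample correlated best with its own number. Where samples vary this much (biological coefficient of variation 0.952), such low correlations cannot tell pairs from separate mice. Pairing is therefore unknown, and the main fit did not treat the numbers as pairs. At 3 weeks the count of 0 became 3 with deposited counts, 122 with DESeq2, 39 with no filter, 2 at 10 CPM and 2 with thinned cells. For the interaction it became 2 with deposited counts, 149 with DESeq2 and 14 with no filter, and was 0 to 1 with a sample left out (1 without corpus callosum replicate 1 of 3 weeks, 1 without hippocampus replicate 1 of 3 weeks). With means in place of medians over cells, 3 of 5 cell measures passed (counts per cell, spike-in percent, wells kept). These changes reversed sign: Clec7a share with deposited counts (-0.142 percentage points), Mbp share with deposited counts (-1.37), Slc34a2 and Gm10800 shares without thinning (-0.783 and 0.418), and mitochondrial percent with deposited counts (-0.0606) and without columns 1 and 2 (-0.0261). With 1 sample left out, these ranges crossed 0: the share of cells (percentage points) for Apoe (-5.29 to 4.08), Cd74 (-7.83 to 4.41), H2-Aa (-9.50 to 0.261) and Pon3 (-5.00 to 1.598), detected genes per cell (-181.9 to 61.5) and mitochondrial percent (-0.0702 to 0.214). None of these had passed a test. In the deposited counts, wells of hippocampus replicate 1 also held counts of corpus callosum wells, which filled plate columns 13 to 24. The cause of the reversals was not tested. Of genes at 10 CPM or more, 11.5% had an interval within 2-fold; the parts of depth and of spread between samples were not told apart.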
